A study of Mus musculus with 12 samples.

Results

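The meiosis genes are 36 genes that encode proteins of the synaptonemal complex, the meiotic chromosome axis and cohesin, the recombination machinery and the switch into meiosis, with a few germ cell genes of other function. They were picked by name with earlier results of these data known, by a rule that uses no measured value, and all 36 were present among the 22911 genes listed for both sexes. The RNA came from epiblast-like cells (EpiLCs), a culture model of the early post-implantation epiblast that forms from embryonic stem cells (ESCs) within 48 h of FGF2 and Activin A, and was measured by RNA-Seq. There were 12 libraries, 3 for each of 4 groups: female Kdm5c fl/fl (labelled fWT), female Kdm5c Δ/Δ (fKO), male Kdm5c fl Y (mWT) and male Kdm5c Δ Y (mKO), the names used below, with 3 independent ESC lines per genotype. The controls also carry the floxed allele, and the labels give the strain as C57BL/6J, whereas the study's methods give a mixed background for the floxed strain. The labels give the genotypes as Smcx (another name of Kdm5c) wild type or knockout. The Δ allele lacks exons 11 and 12, which encode the demethylase domain, and the rest of the transcript can still be made. KDM5C removes methyl groups from H3K4, a mark of active promoters.

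Meiosis turns a diploid germ cell into haploid gametes. In its long prophase, cohesin and HORMA-domain proteins build an axis along each chromosome, SPO11 cuts the DNA, DMC1 loads onto the cut ends and drives exchange with the homologous chromosome, the synaptonemal complex zips the homologs together, and the MutS and MutL homologues turn some of the exchanges into crossovers. STRA8 is the switch through which germ cells enter this program. Cells of the early embryo are not in meiosis, and many of these genes are held at low levels there and in somatic tissues by promoter DNA methylation and by repressor complexes whose subunits recognise E-box and E2F-like sequences.

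The deposited tables give the mean normalized count (reads divided by the size factor of the library) of each group. The reads of the single libraries were worked out from these means, and the libraries of a group are called A, B and C by falling size factor, since nothing ties them to the numbered samples. Between 5516216 and 11092731 reads per library were recovered in this way.

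Kdm5c itself checked the labels in females. Its normalized counts were 2336, 2429 and 2315 in the fWT libraries A, B and C and 1406, 1447 and 1505 in fKO (log2 change -0.70, SE 0.054, adjusted p = 4.53e-09). In males they were 2195, 2110.1 and 2371 in mWT and 1897, 1943 and 1976 in mKO (log2 change -0.20, SE 0.10, adjusted p = 0.271). The groups did not overlap in either sex, but the male difference did not pass the test, and a count over the whole gene also holds reads of the exons that the Δ allele keeps.

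The female libraries lay close together and the male libraries did not. The median distance of a gene from its group mates, over genes with a mean of at least 100, was 0.073 to 0.083 on the log2 scale in the 6 female libraries. In males it was 0.13 to 0.16 in 4 libraries, 0.23 in mWT library B and 0.25 in mKO library A. mWT libraries A and C had reads on 991 and 915 of 1459 olfactory and vomeronasal receptor genes, which EpiLCs should not use, against 62 to 124 in the other 10 libraries (any read counted). The part of such reads in genes with low counts was not tested. All 9 EpiLC markers were present in all 12 libraries, the lowest value being 50.7 normalized counts of Sox3 in mKO library B. Fgf5 and Pou5f1 were at 124 to 404 and 2750.3 to 4402 normalized counts. In mutant females Otx2, Dnmt3b, Dnmt3a and Sox2 of this list were called higher and Pou3f1, Pou5f1, Lin28b and Sox3 lower, and in mutant males Fgf5, Otx2 and Pou3f1 were called lower. Of all genes tested, 50.1% were called in females and 7.8% in males. The male calls of Fgf5 and Pou3f1 were lost without any 1 library but mKO A (adjusted p up to 0.130 and 0.137), and the female call of Pou3f1 without any but fWT B or fKO A (up to 0.146).

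Markers of other cells moved with the genotype. For the counts that follow, 25.4% of all genes were called higher and 24.7% lower in females, and 4.21% and 3.59% in males. The summed level of 9 naive ESC markers was 1143 to 1190.1 in fWT, 3319.7 to 3482 in fKO, 1505 to 2670.4 in mWT and 4479 to 7620.1 in mKO, with 8 of 9 called higher in mutant females and 6 of 9 in mutant males. The 9 endoderm markers summed to 259.5 to 328 in fWT and 5269 to 5432 in fKO (9 of 9 higher), and to 2236 to 4166 in mWT and 599.8 to 5278 in mKO (Sox17 called lower), where library A held 363 normalized counts of Cubn and the others 3477 and 3663. The 8 markers of fibroblasts, on which ESC lines are derived as a feeder layer, summed to 2256 to 2303 in fWT and 750.8 to 817 in fKO, and to 565 to 825 in mWT and 4179 to 4667 in mKO. Per the methods of the study, the ESCs were grown in gelatin-coated dishes before conversion to EpiLCs. Col1a1, Col1a2 and Postn of that list were called lower in females, and these and Col3a1 higher in males. Thy1 was not called in either sex, and Dcn, Lum and Fbln5 stayed at or below 15. The 6 markers of Sertoli and Leydig cells, the somatic cells of the testis, summed to 111.7 to 227 in every library, with Star called higher and Wt1 lower in mutant females and none called in males. Single libraries decided some of these male calls: without mWT library C, those of Zfp42, Klf2, Esrrb and Tfcp2l1 (naive), Col3a1 and Sox17 were lost, and without mWT library A, all of these but Klf2 (adjusted p up to 0.176, for Sox17). The part of these cell types in the results below was not tested, and in bulk RNA fewer cells of a type and less RNA per cell cannot be told apart.

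The upstream 250 bases of 7 members are shown because these genes carry results below: Sycp1 had the largest rise in females, Sycp3 fell in both sexes, Hormad1 and Stag3 rose in females, and Tex19.1, Stra8 and Sohlh2 rose in both sexes. Sequences are from RefSeq on build GRCm38.p6, 5′ to 3′ toward the start of transcription. Capitals mark CACGTG, an E-box, and GCGGGA or its reverse complement TCCCGC, an E2F-like motif. Both were searched on both strands.
Sycp1 (chr3:102936101-102936350, minus strand): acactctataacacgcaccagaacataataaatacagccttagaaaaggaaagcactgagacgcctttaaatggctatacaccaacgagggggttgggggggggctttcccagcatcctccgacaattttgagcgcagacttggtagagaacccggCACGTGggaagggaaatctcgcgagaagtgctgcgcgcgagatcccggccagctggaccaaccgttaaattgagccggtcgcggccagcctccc
Sycp3 (chr10:88459337-88459586, plus strand): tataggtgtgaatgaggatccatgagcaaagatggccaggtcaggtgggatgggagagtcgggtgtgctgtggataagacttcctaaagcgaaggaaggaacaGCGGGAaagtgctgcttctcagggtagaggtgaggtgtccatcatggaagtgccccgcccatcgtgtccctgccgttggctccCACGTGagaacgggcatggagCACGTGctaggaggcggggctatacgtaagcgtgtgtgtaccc
Hormad1 (chr3:95559427-95559676, plus strand): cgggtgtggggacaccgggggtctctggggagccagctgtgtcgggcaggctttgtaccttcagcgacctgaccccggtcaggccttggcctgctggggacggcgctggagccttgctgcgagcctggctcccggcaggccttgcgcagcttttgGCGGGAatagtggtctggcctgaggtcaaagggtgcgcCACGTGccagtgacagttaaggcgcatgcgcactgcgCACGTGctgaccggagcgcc
Stag3 (chr5:138280259-138280508, plus strand): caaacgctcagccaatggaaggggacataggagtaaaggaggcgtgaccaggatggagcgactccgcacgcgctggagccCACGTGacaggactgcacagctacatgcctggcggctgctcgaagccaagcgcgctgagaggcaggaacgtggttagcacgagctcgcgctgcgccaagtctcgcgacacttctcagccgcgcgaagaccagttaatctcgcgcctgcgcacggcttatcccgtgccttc
Tex19.1 (chr11:121145893-121146142, plus strand): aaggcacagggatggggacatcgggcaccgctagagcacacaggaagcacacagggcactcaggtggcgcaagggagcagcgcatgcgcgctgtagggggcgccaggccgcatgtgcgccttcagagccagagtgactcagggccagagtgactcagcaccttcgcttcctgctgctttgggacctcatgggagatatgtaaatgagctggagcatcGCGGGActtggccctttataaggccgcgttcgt
Stra8 (chr6:34920698-34920947, plus strand): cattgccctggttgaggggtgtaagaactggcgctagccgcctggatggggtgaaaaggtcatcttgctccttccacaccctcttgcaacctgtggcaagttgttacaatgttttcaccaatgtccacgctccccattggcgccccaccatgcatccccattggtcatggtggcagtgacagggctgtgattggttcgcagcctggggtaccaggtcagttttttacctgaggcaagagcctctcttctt
Sohlh2 (chr3:55181794-55182043, plus strand): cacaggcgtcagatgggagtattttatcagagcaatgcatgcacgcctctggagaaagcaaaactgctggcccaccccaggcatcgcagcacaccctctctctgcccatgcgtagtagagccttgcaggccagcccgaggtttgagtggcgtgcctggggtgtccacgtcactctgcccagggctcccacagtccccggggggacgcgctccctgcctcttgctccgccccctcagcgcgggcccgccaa
CACGTG lies 94 bases before the start in Sycp1, 64 and 43 bases before it in Sycp3, 57 and 20 in Hormad1 and 170 in Stag3. GCGGGA or TCCCGC lies 147 bases before the start in Sycp3, 95 in Hormad1 and 33 in Tex19.1, so that Sycp3 and Hormad1 hold both motifs in the stretches shown. With the 50 bases after the start, which are not shown, Sycp1 and Stag3 hold both as well. Neither motif is in the stretch shown for Stra8 or Sohlh2. Of the 36 members, 33 matched a RefSeq promoter (250 bases before to 50 bases after the start). CACGTG was present in 8 of these 33 (24.2%, against 8.09% of 27025 genes), GCGGGA or TCCCGC in 16 (48.5%, against 22%), and both in 6 (18.2%, against 2.65%). The median ratio of observed to expected CpG was 0.70 in the members and 0.415 over all genes. Both motifs contain a CpG, and the shares over all genes were not matched for CpG content. The part of CpG content in the motif shares was not tested. The E-box was found among members of every behaviour: in females it was in 4 of the 17 matched genes that rose (Sycp1, Hormad1, Stag3 and Taf7l), in 2 of 8 that fell (Sycp3 and Syce2) and in 2 of 8 that passed in neither direction (Tex12 and Meig1).

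On loss of Kdm5c most meiosis genes were called in female EpiLCs and fewer in male EpiLCs, where the estimates were less precise. The median standard error of the log2 change, over members with a mean of 100 to 1000, was 0.087 in females and 0.22 in males. The part of this precision in the smaller number of male calls was not tested. In females 19 of 36 were higher in fKO, 8 were lower and 9 did not pass (limma, adjusted p under 0.05 over all genes tested). That is 75% of the members in a comparison in which 50.1% of 19572 genes passed, 25.4% higher and 24.7% lower. The median log2 change was 0.64 for the members and 0.0037 for all genes. In males 6 were higher in mKO, 4 were lower and 26 did not pass, which is 27.8% of the members where 7.8% of 21872 genes passed, 4.21% higher and 3.59% lower. The male median was -0.094 for the members and -0.16 for all genes, or 0.0008 when means under 10 were left out. Sycp1, Dmc1, Tex15, Stra8, Sohlh2 and Tex19.1 were higher in both sexes, a pattern of 2.08% of 19430 genes, and Sycp3, Syce3 and Mnd1 were lower in both, a pattern of 1.97%. None of the 36 was called in opposite directions, against 2.24% of all genes.

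**Figure D1:**
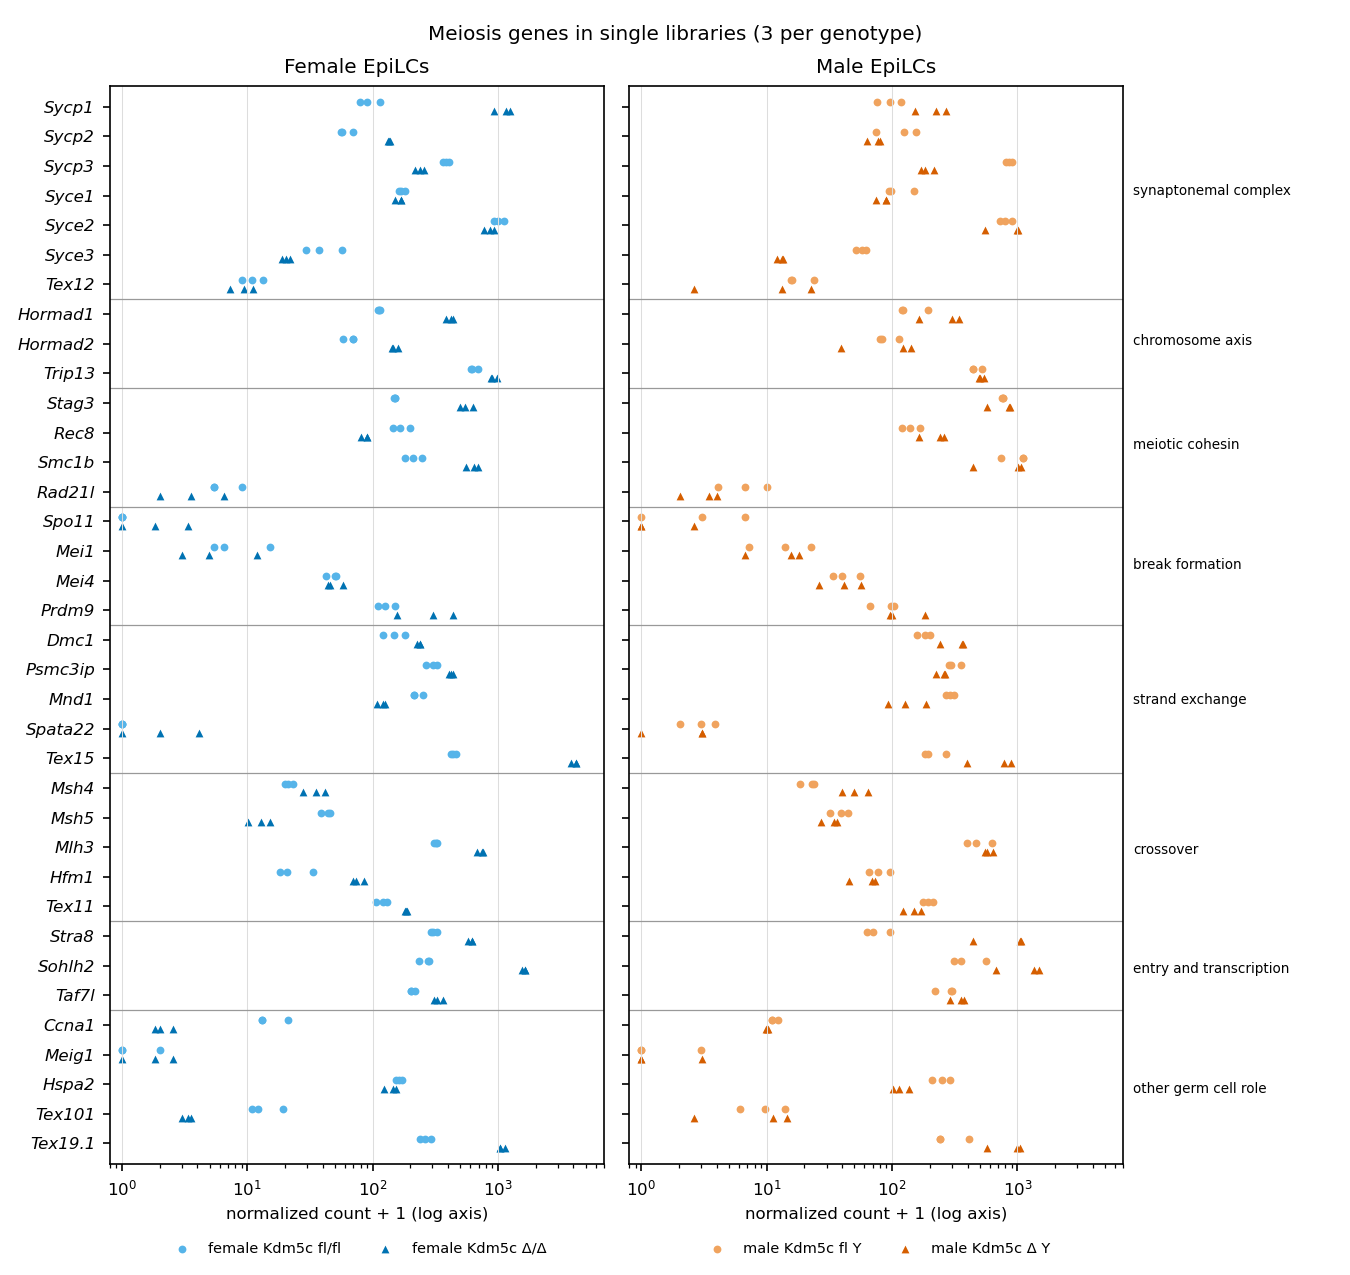
Normalized count + 1 (log axis) of the 36 meiosis genes in each of the 12 libraries, females left and males right, with circles for controls and triangles for Kdm5c mutants and genes grouped by role. The female groups do not overlap for 27 genes, whereas in males mKO library A often lies away from the other mutant libraries.

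**Figure D2:**
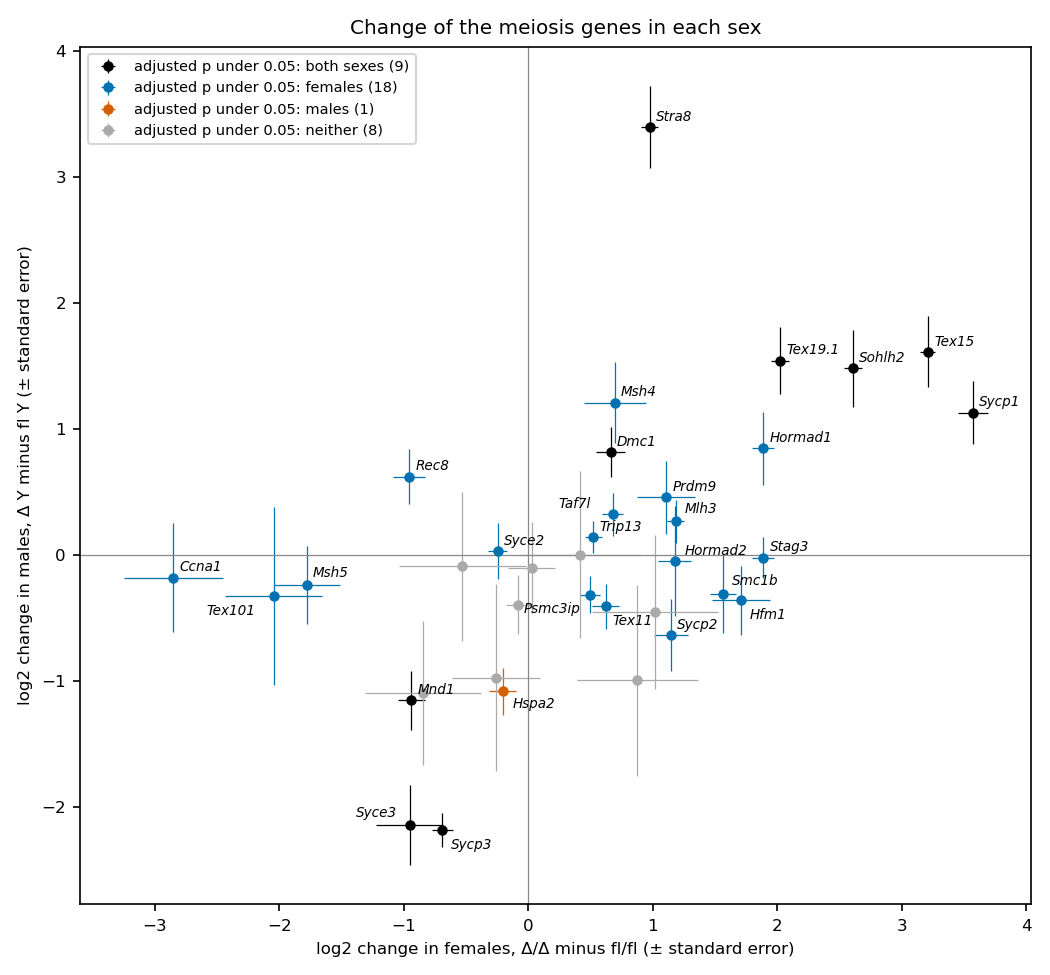
Log2 change of each meiosis gene in females (horizontal) and males (vertical), mutant minus control, with standard errors and colours for the sex in which the adjusted p was under 0.05. The 9 genes called in both sexes lie in the upper right (6 genes) and lower left (3 genes), and Stra8 is the gene with the largest male rise, 3.40.

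The values of the groups did not overlap for 19 higher and 8 lower members in females, where 27.6% and 27.2% of all genes did so, and for 7 higher and 9 lower members in males, where 12.7% and 13.9% of all genes did so. An exact two-sided permutation test of 3 against 3 libraries cannot give a p below 0.10, which each of these genes reached. All p-values measure the spread between these libraries.

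The share called was higher at higher levels up to a mean of 1000, among the members and over all genes. In females 15 of 21 members with a mean of 100 to 1000 rose and 4 fell (90.5%, against 68.2% of 7255 genes of that level), 5 of 6 members with a mean of 10 to 100 passed (83.3% against 53.2%), and 2 of 8 below 10 passed (25% against 16.9%). The remaining member, Tex15, had a mean above 1000 and rose, in a class where 68.7% of 2301 genes passed. In males 6 of 20 members with a mean of 100 to 1000 rose and 3 fell (45% against 12.2% of 7593 genes), 1 of 10 with a mean of 10 to 100 passed (10% against 9%), and none of 6 below 10 passed (1.71% of all genes at that level). The 100 to 1000 class held every member called higher in males.

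**Figure D3:**
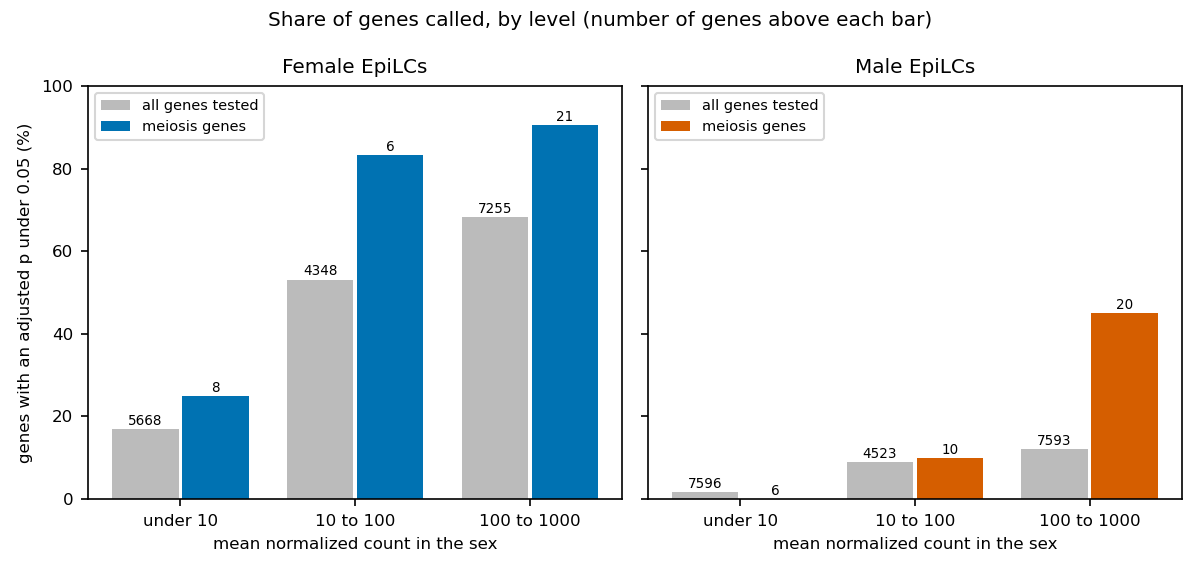
Percentage of genes with an adjusted p under 0.05, by the mean normalized count of the gene in that sex, for all genes (grey) and the meiosis genes (coloured), with the number of genes above each bar. Genes with a mean above 1000, among them Tex15 in females, are not shown. The members exceed all genes of their level in females at 100 to 1000 (90.5% against 68.2%) and in males in the same class (45% against 12.2%).

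The male calls depended on single libraries. With mWT library A or library C left out, 3 members passed (Stra8, Sycp3 and Syce3 in both cases), and with mKO library B or C left out 6 passed. Without mWT library B 10 passed, of which 7 were among the original calls, and without mKO library A 12 passed, which included all 10. Without both of the libraries that stood farthest from their group (mWT library B and mKO library A), all 10 calls were kept and Sycp2, Syce2, Hormad1, Msh4, Mlh3 and Taf7l were added, for 11 higher and 5 lower, while 9352 of all genes then passed. That fit was chosen after the data were seen, so the calls it added are no independent support. Without the control libraries with reads on silent genes (mWT A and C) no gene passed with limma. In that fit mWT library B was the lone control, its spread was taken from the 3 mutant libraries, and the absence of calls says nothing about stability. In it 5 members were higher and 5 lower at an unadjusted p under 0.05, as were 2803 of all genes. The direction of the 10 called members was kept, with log2 changes of 1.46 for Sycp1, 1.01 for Dmc1, 1.27 for Tex15, 3.04 for Stra8, 0.98 for Sohlh2, 1.03 for Tex19.1, -2.17 for Sycp3, -2.26 for Syce3, -1.26 for Mnd1 and -0.83 for Hspa2.

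**Figure D4:**
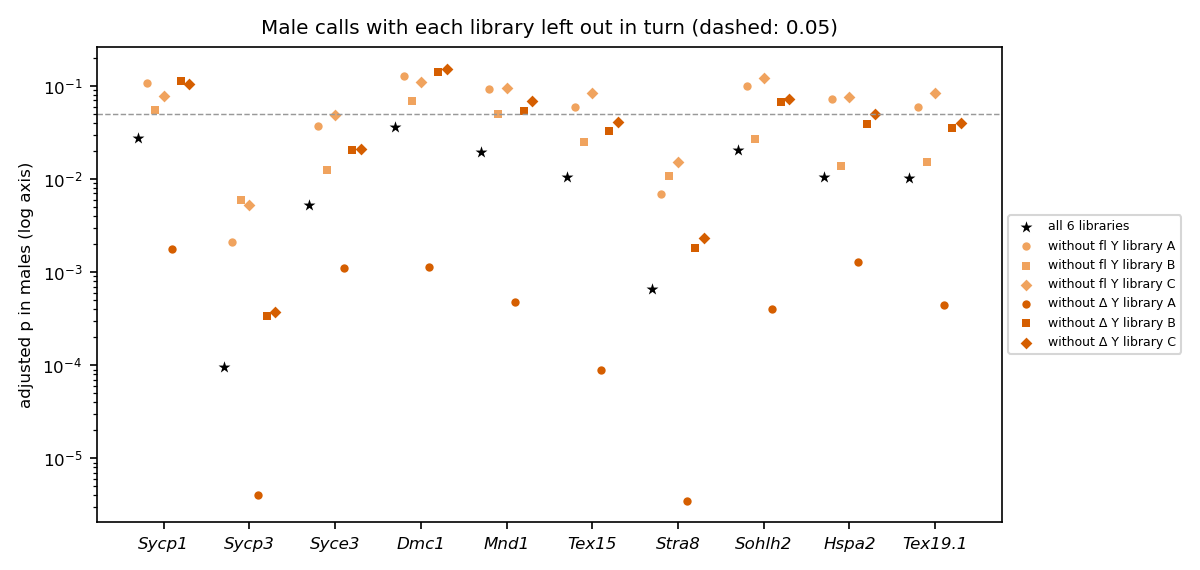
Adjusted p (log axis) of the 10 meiosis genes called in males with all 6 male libraries (stars) and with each library left out in turn (circles, squares and diamonds), with 0.05 as a dashed line. Stra8, Sycp3 and Syce3 stay under the line throughout, and leaving out mKO library A lowers the adjusted p of every gene shown.

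The synaptonemal complex is the zipper between paired homologs. SYCP1 spans its central region as the transverse filament, SYCP2 and SYCP3 form the lateral elements, and SYCE1, SYCE2, SYCE3 and TEX12 belong to the central element. In females Sycp1 and Sycp2 rose, Sycp3, Syce2 and Syce3 fell, and Syce1 and Tex12 did not pass, and in males Sycp1 rose and Sycp3 and Syce3 fell.

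Sycp1 (chr3:102622422-102740023, minus strand on mm9, as for all gene positions here) had normalized counts of 113, 88.9 and 77.8 in fWT and 933, 1248 and 1164 in fKO (log2 change 3.57, SE 0.12, adjusted p = 5.85e-14). In males it had 95.7, 75.5 and 118 in mWT and 152, 271 and 221 in mKO (log2 change 1.13, SE 0.25, adjusted p = 0.0274). Every mutant library lay above every control library in each sex, with mean ratios of 12 in females and 2.23 in males, and the male call was lost without any library but mKO A (adjusted p up to 0.112).

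Sycp3 (chr10:87922314-87935981, plus strand) went the other way. Its normalized counts were 404, 360.1 and 382 in fWT and 216, 254 and 239.5 in fKO (log2 change -0.69, SE 0.083, adjusted p = 1.34e-06). In males Sycp3 had 909, 849.8 and 805 in mWT and 215, 182 and 169 in mKO (log2 change -2.18, SE 0.14, adjusted p = 9.65e-05). All mutant libraries of both sexes lay below all control libraries, and the male call held without each library in turn (adjusted p up to 0.00591). In the annotation 660 of the 1264 exonic bases of Sycp3 lie opposite Chpt1, a gene of phospholipid synthesis, which rose in females (log2 change 0.37, SE 0.14, adjusted p = 0.0327) and did not pass in males (log2 change 0.31, SE 0.22, adjusted p = 0.386). Whether strand was used in counting is not given in the sources used here.

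Syce3 had 28.2, 36.2 and 55.6 normalized counts in fWT and 18, 21 and 19.201 in fKO (log2 change -0.95, SE 0.27, adjusted p = 0.0062), a call that was lost without fWT library C (adjusted p = 0.0534). In males it had 50.8, 61 and 56 in mWT and 12.2, 11.1 and 12.4 in mKO (log2 change -2.14, SE 0.32, adjusted p = 0.00529). The mutant libraries were the lower ones in both sexes, and the male call held without each library (adjusted p up to 0.0492).

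Sycp2 had 55.3, 56 and 68.9 normalized counts in fWT and 135, 136 and 130.4 in fKO (log2 change 1.15, SE 0.14, adjusted p = 1.18e-06). In males Sycp2 had 123, 73.4 and 155 in mWT and 61.7, 76 and 78.6 in mKO (log2 change -0.63, SE 0.28, adjusted p = 0.205). Syce2 was the most abundant member per kb of exon in female controls and fell slightly in mutants, from 1112, 1000.2 and 932 normalized counts in fWT to 931, 773 and 864 in fKO (log2 change -0.25, SE 0.075, adjusted p = 0.0109), which was lost without fWT library A or fKO library B (adjusted p up to 0.106). Syce1 (log2 change -0.081 in females and -0.39 in males) and Tex12 (-0.26 and -0.97) did not pass in either sex.

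All 3 chromosome axis genes rose in mutant females and none passed in mutant males. As for all genes, 25.4% were higher in females and 7.8% passed in males. HORMAD1 and HORMAD2 bind unsynapsed axes and TRIP13 is the ATPase that takes them off. Hormad1 (chr3:95363599-95391593, plus strand) had 113, 109 and 112 normalized counts in fWT and 384, 436 and 423 in fKO (log2 change 1.89, SE 0.087, adjusted p = 5.15e-12). In males it had 122, 193 and 119 in mWT and 164, 339.6 and 297 in mKO (log2 change 0.85, SE 0.29, adjusted p = 0.109), where mWT library B, the highest control, lay above mKO library A, the lowest mutant. Without that pair of libraries, in a fit chosen after the data were seen, the male log2 change was 1.39 (limma, adjusted p = 0.000213). Leaving out the libraries that made the groups overlap favours a call, so this p is no support for a rise. The controls kept, mWT libraries A and C, are those with reads on silent genes. Hormad2 went from 57.3, 69.2 and 68.9 normalized counts in fWT to 158, 141 and 145 in fKO (log2 change 1.18, SE 0.13, adjusted p = 5.06e-07) and Trip13 from 606, 619 and 697 normalized counts in fWT to 890.2, 989 and 880.2 in fKO (log2 change 0.52, SE 0.069, adjusted p = 4.47e-06). Neither passed in males, where the log2 changes were log2 change -0.046, SE 0.44, adjusted p = 0.955 for Hormad2 and log2 change 0.14, SE 0.13, adjusted p = 0.505 for Trip13.

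Among the meiotic cohesin subunits, Stag3 and Smc1b rose in mutant females, Rec8 fell and Rad21l did not pass, and none passed in males. The share of all genes that passed was 50.1% in females and 7.8% in males. STAG3, SMC1B and the kleisins REC8 and RAD21L replace STAG1 or STAG2, SMC1A and RAD21 of mitotic cohesin. Stag3 (chr5:138721468-138753621, plus strand) had normalized counts of 151, 150.4 and 146 in fWT and 498, 544 and 628 in fKO (log2 change 1.89, SE 0.087, adjusted p = 5.29e-12). In males it had 771, 745 and 769 in mWT and 571, 850.4 and 875 in mKO (log2 change -0.019, SE 0.17, adjusted p = 0.951). The female control libraries were the low ones: every male library, control or mutant, lay above them, and the male groups overlapped.

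Smc1b (chr15:84895121-84962387, minus strand) had 210.2, 247 and 179 normalized counts in fWT and 552, 688 and 644 in fKO (log2 change 1.57, SE 0.10, adjusted p = 6.57e-10). Its male values were 1113, 734 and 1099 in mWT and 442, 1057 and 1017 in mKO (log2 change -0.31, SE 0.31, adjusted p = 0.558), with mKO library A lowest and mWT library B the lowest control. Smc1b thus showed the order of Stag3, with female controls lowest.

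Rec8 (chr14:56236874-56244232, plus strand) fell in females from 164, 197 and 145 normalized counts in fWT to 88.6, 79.1 and 88.9 in fKO (log2 change -0.96, SE 0.13, adjusted p = 4.86e-06). In males it was 167, 138 and 119 in mWT and 239, 260.5 and 162 in mKO (log2 change 0.62, SE 0.22, adjusted p = 0.114), where the groups overlapped. Rad21l had at most 8.97 normalized counts in any library.

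Beside their mitotic counterparts the meiotic cohesin genes were not rare transcripts in every group. Per kb of exon, the level of Smc1b was 15.4% ± 2.52 (SD, n = 3) of that of Smc1a in fWT, 53.1% ± 2.41 in fKO, 94.4% ± 31.1 in mWT and 80.9% ± 39.4 in mKO. Stag3 stood at 13.9% ± 0.715 of the level of Stag1 per kb in fWT, 63.7% ± 4.33 in fKO, 97.1% ± 2.02 in mWT and 90.4% ± 14.8 in mKO. Against Stag2 the values were 7.37% ± 0.121, 38.5% ± 4.41, 46.1% ± 3.39 and 60.8% ± 26.7 in the same order. Female controls had the lowest share of both genes. Rec8 remained at 3.84% to 8.45% of the level of Rad21 in all 4 groups.

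Of the 9 mitotic counterparts for which values are given, Taf7 and Psmc3 rose in mutant females (log2 changes 0.53 and 0.48), Smc1a, Stag1 and Stag2 fell (-0.23, -0.30 and -0.48) and Rad21, Smc3, Pms2 and Ccna2 did not pass (0.029, 0.041, -0.17 and 0.08). That is 5 of 9 called in females, close to the 50.1% of all genes. In males Rad21 rose (log2 change 0.44, SE 0.11, adjusted p = 0.0408), a call lost without any male library but mWT B or mKO A (adjusted p up to 0.19), and the other 8 did not pass, beside 7.8% of all genes called. Hspa8, the counterpart of Hspa2, was too abundant for its reads per library to be recovered.

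**Figure D5:**
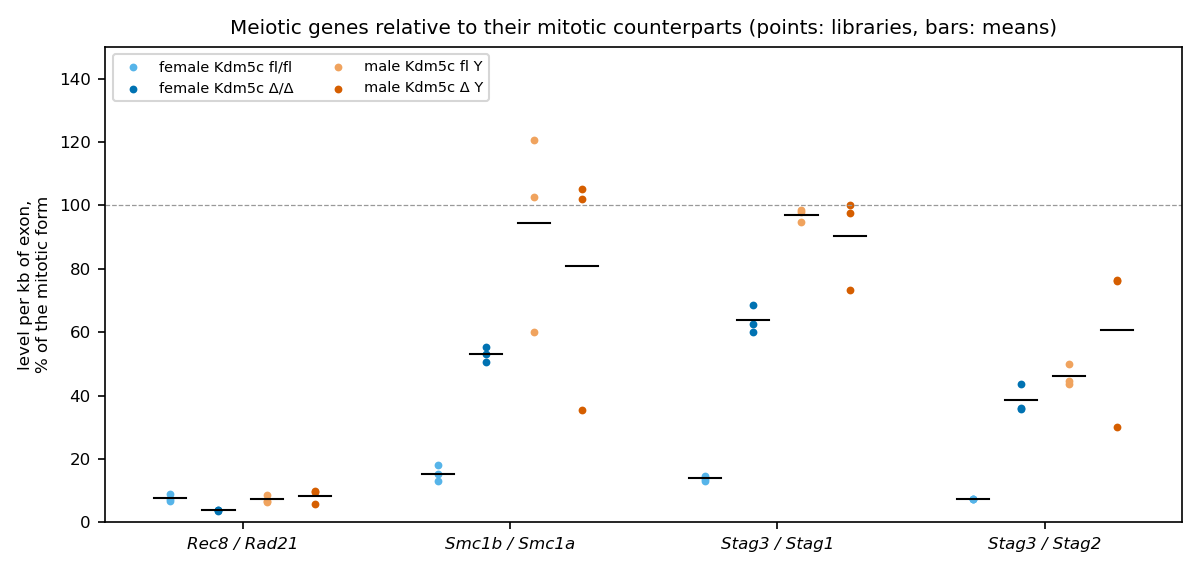
Level of 3 meiotic cohesin genes per kb of exon, in 4 pairs, as a percentage of a mitotic counterpart in the same library, with a point for each library and a bar for the mean of 3. Smc1b and Stag3 are lowest in female controls (15.4% of Smc1a and 13.9% of Stag1) and higher in the other 3 groups, whereas Rec8 stays under 10% of Rad21 in every library.

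Of the 4 genes of break formation, Prdm9 alone passed, in females. PRDM9 marks the hotspots, SPO11 makes the cut, and MEI1 and MEI4 are needed for it. Prdm9 (chr17:15680043-15701318, minus strand) rose in females, from 151, 125 and 109 in fWT to 437, 304 and 157 in fKO (log2 change 1.11, SE 0.23, adjusted p = 0.000638). The mutant libraries differed widely among themselves, and the lowest of them stood just above the highest control. In males Prdm9 was at 96.7, 66.2 and 102 in mWT and 95.8, 98.3 and 182 in mKO (log2 change 0.46, SE 0.29, adjusted p = 0.342). Mei4 had 41.7 to 50.3 normalized counts in fWT and 43.1 to 56.6 in fKO and did not pass in either sex, nor did Mei1, at 2.02 to 21.6 over all libraries. Spo11 had 0 reads in all 3 fWT libraries, where 3 reads over the group would give a mean of 1.07, and at most 5.75 normalized counts elsewhere, so that no fold is given.

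Of the strand exchange genes, Dmc1 and Tex15 rose and Mnd1 fell in both sexes. DMC1 is the meiotic recombinase, PSMC3IP (HOP2) and MND1 form the dimer that assists it, SPATA22 works with the single-stranded DNA binding proteins, and TEX15 is needed for break repair and for silencing of transposons in male germ cells. Tex15 (chr8:34627210-34696054, plus strand) had 461, 419 and 436 normalized counts in fWT and 3824, 4195 and 4199 in fKO (log2 change 3.21, SE 0.059, adjusted p = 3.85e-17), a mean ratio of 9.28. In males it had 182, 268 and 193 in mWT and 396, 882 and 777 in mKO (log2 change 1.61, SE 0.28, adjusted p = 0.0105). The groups lay apart in both sexes, and the male call was lost without mWT library A or C (adjusted p up to 0.0839).

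Dmc1 (chr15:79391930-79435529, minus strand) had 181, 121 and 146 normalized counts in fWT and 238, 237 and 224 in fKO (log2 change 0.66, SE 0.12, adjusted p = 0.000148). In males Dmc1 had 181, 157 and 201 in mWT and 239, 361 and 369 in mKO (log2 change 0.82, SE 0.20, adjusted p = 0.0359). Its groups did not overlap, and in males the call was lost without any library but mKO A (adjusted p up to 0.154) and with voom.

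Mnd1 (chr3:83891856-83959708, minus strand) had 214, 250.3 and 212 normalized counts in fWT and 107, 119.5 and 125 in fKO (log2 change -0.94, SE 0.11, adjusted p = 6.57e-07). In males Mnd1 had 288, 310.1 and 266 in mWT and 184, 92.2 and 126 in mKO (log2 change -1.15, SE 0.23, adjusted p = 0.0195), the mutant libraries being lower throughout. The male call was again lost without any library but mKO A (adjusted p up to 0.0952). Its partner Psmc3ip rose in females, from 326, 264 and 302 normalized counts in fWT to 402, 433 and 419 in fKO (log2 change 0.50, SE 0.082, adjusted p = 5.83e-05). The male values of Psmc3ip were 296, 350.5 and 283 in mWT and 223, 266 and 259 in mKO (log2 change -0.31, SE 0.15, adjusted p = 0.224). The dimer genes therefore moved in opposite directions in mutant females. In the annotation Psmc3ip shares 385 of 1818 exonic bases with Mlx on the opposite strand, which changed by 0.21 in females (adjusted p = 0.0397). Spata22 had 0 reads in fWT and at most 3.13 normalized counts in any library.

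The crossover genes all passed in females, 4 higher and 1 lower, and none passed in males. Among all genes 50.1% passed in females and 7.8% in males, so that none in males is near the share of all genes. MSH4 and MSH5 form the complex that stabilises exchange intermediates, MLH3 acts in their resolution, HFM1 is a helicase, and TEX11 is an X-linked protein needed for crossovers. Mlh3 (chr12:86575479-86611541, minus strand) had 322, 306 and 325 normalized counts in fWT and 679, 753 and 742 in fKO (log2 change 1.19, SE 0.068, adjusted p = 8.69e-11). In males Mlh3 had 463, 627 and 394 in mWT and 554, 568 and 636 in mKO (log2 change 0.27, SE 0.17, adjusted p = 0.346). Hfm1 (chr5:107269211-107355340, minus strand) had 17.1, 19.8 and 32.2 normalized counts in fWT and 84.6, 68.2 and 72.8 in fKO (log2 change 1.71, SE 0.23, adjusted p = 6.33e-06). In males Hfm1 had 95.7, 64.1 and 76.2 in mWT and 44.6, 72 and 68.3 in mKO (log2 change -0.36, SE 0.27, adjusted p = 0.427). For both genes the female controls were the lowest of the 4 groups.

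Msh5 (chr17:35165550-35183690, minus strand) fell in females, from 43.3, 45 and 37.8 normalized counts in fWT to 14.1, 11.8 and 9.09 in fKO (log2 change -1.78, SE 0.27, adjusted p = 1.93e-05). The male values of Msh5 were 37.9, 31 and 43.1 in mWT and 26, 35.5 and 33.1 in mKO (log2 change -0.24, SE 0.31, adjusted p = 0.642). Its partner Msh4 rose in females, from 19.11, 22 and 20.0 normalized counts in fWT to 40.8, 26.9 and 34.4 in fKO (log2 change 0.70, SE 0.25, adjusted p = 0.027), a call that was lost without fWT library A or C or without fKO library A or C (adjusted p up to 0.119). In males Msh4 was 21.9, 17.6 and 23 in mWT and 39, 62.8 and 48.6 in mKO with no overlap and just missed the threshold (log2 change 1.21, SE 0.32, adjusted p = 0.0518). As with the strand exchange dimer, the partners in this complex moved in opposite directions in mutant females. Tex11 went from 121, 105 and 130.1 normalized counts in fWT to 182, 178 and 188 in fKO (log2 change 0.62, SE 0.11, adjusted p = 8.68e-05). The male values of Tex11 were 191, 209.9 and 177 in mWT and 121, 148 and 169.6 in mKO (log2 change -0.41, SE 0.18, adjusted p = 0.195).

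All 3 genes of meiotic entry and germ cell transcription rose in mutant females, and Stra8 and Sohlh2 also rose in mutant males. The shares of all genes called higher were 25.4% in females and 4.21% in males. STRA8 is the retinoic acid-responsive factor needed to start meiosis, SOHLH2 is a helix-loop-helix factor of early germ cells, and TAF7L is a germ cell form of a TFIID subunit. Stra8 (chr6:34870163-34889342, plus strand) had 303, 326 and 290.2 normalized counts in fWT and 579, 615 and 613 in fKO (log2 change 0.97, SE 0.07, adjusted p = 1.97e-09). In males it had 61.8, 95.1 and 69 in mWT and 439.9, 1070.4 and 1047 in mKO (log2 change 3.40, SE 0.32, adjusted p = 0.000668). The male controls were the lowest group and the mean ratio was 11.3 in males against 1.97 in females. The male call held without each library in turn (adjusted p up to 0.0152).

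Sohlh2 (chr3:54985950-55013879, plus strand) had 234, 278 and 282 normalized counts in fWT and 1563, 1654 and 1628 in fKO (log2 change 2.61, SE 0.072, adjusted p = 4.91e-15). In males Sohlh2 had 308, 557 and 356 in mWT and 669.5, 1345 and 1485 in mKO (log2 change 1.48, SE 0.30, adjusted p = 0.0203). The groups did not overlap in either sex. The male call was lost without mWT library A or C or mKO library B or C (adjusted p up to 0.122). The X-linked gene Taf7l went from 216, 199.8 and 202 normalized counts in fWT to 324, 364 and 306 in fKO (log2 change 0.68, SE 0.086, adjusted p = 2.59e-06). The male values of Taf7l were 296, 218 and 299 in mWT and 291, 371 and 352 in mKO (log2 change 0.32, SE 0.17, adjusted p = 0.262).

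The remaining 5 members have other germ cell functions and moved in both directions. TEX19.1 protects germ cells and placenta from transposons, CCNA1 is the germ cell A-type cyclin, HSPA2 a spermatocyte chaperone, MEIG1 a protein of spermatid development, and TEX101 a germ cell surface protein. Tex19.1 (chr11:121007457-121009633, plus strand) had 259, 289.9 and 239 normalized counts in fWT and 1029.7, 1040.4 and 1129.8 in fKO (log2 change 2.02, SE 0.075, adjusted p = 2.68e-13). In males Tex19.1 had 242, 411 and 239 in mWT and 572, 1047 and 989 in mKO (log2 change 1.54, SE 0.27, adjusted p = 0.0103). All mutant libraries exceeded all controls of their sex, and the male call was lost without mWT library A or C (adjusted p up to 0.0839). Its neighbouring paralog Tex19.2, with which it could share reads, rose in females from 15.2 ± 5.31 to 49.9 ± 4.72 (SD, n = 3; log2 change 1.71, SE 0.28, adjusted p = 4.56e-05).

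Hspa2 (chr12:77505163-77507921, plus strand) was the only member called in males and not in females. It had 288, 207 and 249 normalized counts in mWT and 136, 114 and 100.3 in mKO (log2 change -1.08, SE 0.19, adjusted p = 0.0105), a call lost without mWT library A or C (adjusted p up to 0.0761), and 170.0, 161 and 151 normalized counts in fWT and 153, 144 and 122 in fKO (log2 change -0.21, SE 0.11, adjusted p = 0.132). With division by total recovered reads it was called lower in females as well, and no member was then called in males alone.

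Ccna1 (chr3:54849391-54858977, minus strand) fell in females from 12.1, 12.1 and 20.0 normalized counts to 1.57, 0.842 and 1.01, which are 2, 1 and 1 reads (log2 change -2.85, SE 0.40, adjusted p = 8.45e-06). The male values of Ccna1 were 9.97, 11.4 and 10.1 in mWT and 8.93, 9.12 and 9.31 in mKO (log2 change -0.18, SE 0.43, adjusted p = 0.801). Ccna1 and Sohlh2 lie 127 kb apart on chromosome 3, the closest members, and moved in opposite directions in females. Tex101 fell in females from 18.1, 9.88 and 11.1 normalized counts in fWT to 2.35, 2.53 and 2.02 in fKO (log2 change -2.05, SE 0.39, adjusted p = 0.000221). Meig1 had at most 2.03 normalized counts in any library.

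Levels per kb of exon put the members on a common scale. In fWT the highest were Syce2 (515 ± 46.1 normalized counts per kb, SD, n = 3), Sycp3 (302 ± 17.5), Trip13 (283 ± 21.8), Mnd1 (258 ± 24.5) and Stra8 (170.1 ± 10.1). In fKO they were Sohlh2 (683 ± 19.7), Tex19.1 (569.8 ± 29.4), Syce2 (435 ± 40.4), Tex15 (423 ± 22.4) and Trip13 (406 ± 26.5). The summed normalized count of all 36 members was 6048 to 6343 in fWT, 14698 to 15692 in fKO, 7697 to 8209.7 in mWT and 7188 to 11369.5 in mKO. The female groups were far apart on this sum, while the lowest male mutant library, A, fell below the male controls. Genes with high counts weigh most in such a sum, above all Tex15, with means of 439 in fWT and 4073 in fKO. It does not describe each member, since 8 were called lower in females and 9 did not pass.

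The change itself differed between the sexes for 18 of the 36 members (limma interaction term, adjusted p under 0.05), where 21.2% of 22014 genes did. For 14 of them the change in males was the lower one (10.7% of all genes) and for 4 it was the higher one (10.6%). The lower ones included Sycp1 (difference -2.44, SE 0.31, adjusted p = 9.54e-05), Stag3 (difference -1.91, SE 0.20, adjusted p = 2.16e-05), Smc1b (difference -1.87, SE 0.38, adjusted p = 0.00321), Hfm1 (difference -2.07, SE 0.38, adjusted p = 0.00157) and Tex15 (difference -1.60, SE 0.32, adjusted p = 0.00292), for which the change was higher in females, and Sycp3 (difference -1.49, SE 0.15, adjusted p = 2.07e-05), which fell more in males. The 4 higher ones were Stra8 (difference 2.42, SE 0.37, adjusted p = 0.000437), which rose more in males, and Rec8, Msh5 and Ccna1, which fell in females and did not pass in males. Of the 18, 12 kept this call under every alternative tried, and Syce3, Hormad1, Smc1b, Sohlh2, Ccna1 and Hspa2 lost it under at least 1. The median of all genes was itself -0.20 in this contrast and near 0 (-0.010) when means under 10 were left out.

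The control cells of the sexes also differed in the level of several of these genes. In a comparison of the controls alone, added after the data were examined and sharing the control libraries with the comparisons above, 8 members were higher in mWT than in fWT and 4 were lower (11.8% and 9.7% of all genes). The higher ones were Stag3 (log2 change 2.35, SE 0.14, adjusted p = 2.38e-07), Smc1b (log2 change 2.19, SE 0.27, adjusted p = 9.64e-05), Hfm1 (log2 change 1.76, SE 0.27, adjusted p = 0.000501), Sycp3, Sycp2, Tex11, Mlh3 and Hspa2 (log2 changes 1.16, 0.89, 0.70, 0.61 and 0.61). The lower ones were Stra8 (log2 change -2.03, SE 0.26, adjusted p = 0.000138), Tex15 (-1.05), Syce1 (-0.62) and Trip13 (-0.46). This comparison was not repeated with libraries left out or with other settings, and mWT libraries A and C are those with reads on silent genes. The sexes were deposited as separate tables, and whether they were normalized together is not given in the sources used here. The size factors found in them were 0.988 to 0.999 times those computed over all 12 libraries. The sexes came as separate lines, so that sex and any difference of line or preparation cannot be told apart.

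Other genes of meiosis were called in both directions, in females at close to the share of all genes. Of a list of 38, 25 were found in the tables. Of these, 8 were higher, 5 lower and 12 not called in mutant females (median log2 change 0.080), and 1 was higher, 4 lower and 20 not called in mutant males (median -0.44). Over all genes 50.1% were called in females and 7.8% in males. With means under 10 left out, the largest female changes were those of Hsf2bp, a recombination factor that binds BRCA2 (log2 change 2.41, SE 0.084, adjusted p = 1.17e-13), 4930447C04Rik, which encodes the synaptonemal complex protein SIX6OS1 (log2 change 2.25, SE 0.09, adjusted p = 7.38e-13), Tex14, a protein of germ cell bridges (log2 change 2.12, SE 0.084, adjusted p = 6.49e-13), Dmrtb1, a regulator of the mitosis to meiosis switch (log2 change 1.33, SE 0.17, adjusted p = 2.23e-06), and the crossover regulator Ccnb1ip1 (log2 change -1.28, SE 0.20, adjusted p = 3.2e-05). Cntd1, Ccdc36, Mcmdc2 and Mybl1 were the other genes called lower in females. Ccdc36 had 3149.7, 3250.0 and 3371 normalized counts in fWT and 1208, 1691 and 3376 in fKO, so that the groups overlapped, and its female call was lost without fWT library A or fKO library A (adjusted p up to 0.0741). In males Tex14 rose (log2 change 1.42, SE 0.29, adjusted p = 0.0198). The 4 that fell in males were Ccnb1ip1 (log2 change -3.02, SE 0.35, adjusted p = 0.00154), the break factor gene Ccdc36 (log2 change -1.83, SE 0.16, adjusted p = 0.000508), Mybl1, which encodes a transcription factor of spermatocytes (log2 change -0.96, SE 0.20, adjusted p = 0.0221), and Meiob (log2 change -2.35, SE 0.58, adjusted p = 0.0394), which at a mean under 10 in each sex had risen in females (log2 change 1.66, SE 0.47, adjusted p = 0.00668). The male calls of Tex14, Mybl1 and Meiob were lost without mWT library A or C or mKO library B or C (adjusted p up to 0.122, 0.129 and 0.164). Ccnb1ip1, with 82.5, 90.03 and 77.8 normalized counts in fWT, 33.7, 44.6 and 25.3 in fKO, 96.7, 181 and 97.7 in mWT and 10.6, 14.2 and 17.6 in mKO, was lower in every mutant library than in every control library of its sex, as Sycp3, Syce3 and Mnd1 were.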

How the data were processed

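ESC lines had been kept in 2i and LIF before differentiation. Per the labels and the methods of the study, ribosomal RNA was removed from total RNA, which was sequenced as 50-base single-end reads, and uniquely mapped reads with up to 1 mismatch were aligned to mm9 with TopHat2 2.1.0 and Bowtie2 2.2.6.0. The gene annotation and the strand used in counting are not given in the sources used here. The authors deposited 2 tables, 1 for each sex, made with DESeq, in which the signal of a gene is the mean normalized count of a group (reads divided by the size factor of the library, averaged over 3 libraries). The fold changes and p-values beside them are the comparisons of the authors and were not used. There were 0 columns of unknown samples.

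Since a mean is a sum of 3 whole numbers times 3 fixed steps, the steps were read from low means and the reads of each library were found by search. Each mean of up to 10000 had exactly 1 solution at the precision of the 15 printed digits. This gave 99.7% to 99.8% of genes and 86% to 91.4% of normalized reads per group, or 5516216 to 11092731 reads per library. In simulated data, 100% of 2000 genes per group were recovered and 0 of 500 values off the steps were solved. A group with 0 reads was given a floor of 3 reads over its libraries, which covers counting error only.

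Genes with a mean above 0 in the sex tested were compared with limma 3.58.1 (R 4.3.3) on log2(normalized count + 1) with a mean-dependent prior. A fold change on this scale understates the change of low genes. P-values were adjusted by Benjamini-Hochberg over all genes tested, with 0.05 as the threshold. Of 200 genes changed by a fold of 2 in simulated data, 96.5% were found in a female-like design (3.5% of calls false, 19077 genes). In a male-like design 90% were found (6.74% false, 21507 genes). Both simulations gave all genes a common spread and held no library that stood apart. The measured male libraries differ in this, so these shares do not carry over to them. The share of true changes found in the measured libraries was not tested. In the measured male libraries 333 to 4691 genes passed with single libraries left out. The difference between the sexes was the interaction term over all 12 libraries. Levels between genes were compared per kb of exon in the GENCODE annotation of mm9. Python 3.11.15 with numpy 2.4.6 and pandas 2.3.3 was used for the rest.

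The 36 members and the other gene lists were chosen with earlier results of these data known. All members were named. From the other lists, genes past the threshold with a mean of at least 10 were named, up to the 5 largest changes per list and sex, with the mitotic counterparts, a few of which are not reported here. Further genes of these lists were named after their values were seen, where a count was small. Alternatives were a pseudocount of 0.1, a minimum mean of 10, voom, other size factors, a single fit over all libraries, and each library left out in turn.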

Additional observations from a re-analysis of the deposited data

Results flagged for a closer look

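For 18 members the change on loss of Kdm5c differed between the sexes, by the interaction term of limma over all 12 libraries (change in males minus change in females, on the log2 scale). The synaptonemal complex genes were Sycp1 (difference -2.44, SE 0.31, adjusted p = 9.54e-05), Sycp2 (difference -1.78, SE 0.32, adjusted p = 0.00146), Sycp3 (difference -1.49, SE 0.15, adjusted p = 2.07e-05) and Syce3 (difference -1.19, SE 0.39, adjusted p = 0.0459), of which Syce3 lost the call under 12 alternatives, among them voom and most single libraries left out. The axis and cohesin genes were Hormad1 (difference -1.04, SE 0.33, adjusted p = 0.0377), Stag3 (difference -1.91, SE 0.20, adjusted p = 2.16e-05), Rec8 (difference 1.58, SE 0.26, adjusted p = 0.000806) and Smc1b (difference -1.87, SE 0.38, adjusted p = 0.00321). Hormad1 lost the call with voom, without any 1 female library and without mWT library B, and Smc1b lost it without mWT libraries A and C together.

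In strand exchange these were Psmc3ip (difference -0.81, SE 0.16, adjusted p = 0.00301) and Tex15 (difference -1.60, SE 0.32, adjusted p = 0.00292), and among crossover genes Msh5 (difference 1.54, SE 0.37, adjusted p = 0.00953), Mlh3 (difference -0.92, SE 0.19, adjusted p = 0.00372), Hfm1 (difference -2.07, SE 0.38, adjusted p = 0.00157) and Tex11 (difference -1.03, SE 0.20, adjusted p = 0.00224). All 6 kept the call under each alternative. The others were Stra8 (difference 2.42, SE 0.37, adjusted p = 0.000437), which kept it too, Sohlh2 (difference -1.13, SE 0.36, adjusted p = 0.0381), Ccna1 (difference 2.68, SE 0.52, adjusted p = 0.00248) and Hspa2 (difference -0.87, SE 0.22, adjusted p = 0.0105). Sohlh2 lost it with voom, without any 1 female library and without mWT library B or C, Hspa2 without mWT libraries A and C together, and Ccna1 was too low to be tested when means under 10 were left out. For Rec8, Msh5, Stra8 and Ccna1 the change was higher in males, and for the other 14 it was lower.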

How the results depend on the processing

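No paired analysis was possible because the deposited columns carry no replicate numbers. The pseudocount, the minimum mean, voom and the other size factors moved no count of called genes or members by more than 1.5 times. A single fit over 12 libraries called 6493 genes in females and 4766 in males, against 9799 and 1705. Alternatives chosen after seeing the data were the male fits without mWT library B and mKO library A, with 9352 genes called, 11 members higher and 10014 genes in the interaction, and without mWT libraries A and C, with 0 genes, 0 members higher and 0 lower, a fit with a lone control library. With single libraries left out, 8811 to 9138 genes passed in females (18 to 20 members higher, 7 to 9 lower), 333 to 4691 in males (1 to 8 higher, 2 to 4 lower) and 3554 to 7334 in the interaction. Females lost Ccna1 and Tex101 to the minimum mean, and Rad21l, Spata22 and Spo11 each passed without 1 fKO library. Members whose direction turned had not passed the test. In females Mei4 was at -0.040 with division by total reads (single libraries left out -0.093 to 0.10). In males without mWT libraries A and C, Syce2 was at -0.14, Hormad2 0.15, Trip13 -0.031, Stag3 0.012, Smc1b 0.089, Mei1 0.78, Spata22 0.048, Msh5 0.011, Mlh3 -0.099 and Tex101 0.28, and without mWT B and mKO A, Hormad2 was at 0.44, Stag3 0.16 and Tex101 0.13. With single libraries left out, the male ranges were -0.11 to 0.32 (Syce2), -0.39 to 0.54 (Hormad2), -0.13 to 0.18 (Stag3), -0.52 to 0.10 (Smc1b), -0.52 to 0.35 (Mei1), -0.36 to 0.19 (Mei4), -0.72 to 0.088 (Spata22), -0.53 to 0.53 (Meig1, with -0.30 by voom and -0.0021 by total reads) and -0.80 to 0.43 (Tex101). In the interaction they were -1.36 to 0.19 (Tex12, 0.081 without mWT B and mKO A), -0.67 to 0.18 (Rad21l, 0.41 without mWT A and C), -0.0073 to 0.98 (Mei1), -0.38 to 0.16 (Mei4), -0.47 to 0.029 (Mnd1) and -0.94 to 0.12 (Meig1, 0.12 without mWT A and C), and Tex19.1 was at 0.055 without mWT B and mKO A. The cause of these shifts was not tested. Depth limits Spo11, Spata22, Meig1 and Rad21l, which had at most 8.97 normalized counts in any library.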

Other observations

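Germ cell identity genes were called in both directions in each sex, and most of those tested were not called in males. Of 23 on this list, 22 could be tested (Prm1 had no read), of which 9 were higher and 4 lower in mutant females, and 3 were higher (Dazl, Dppa3 and Tfap2c) and 2 lower (Mael and Figla) in mutant males, beside 25.4% and 24.7% of all genes in females and 4.21% and 3.59% in males. Dazl, an RNA-binding protein that licenses germ cells for meiosis, had 82.5, 84.5 and 88.9 normalized counts in fWT and 3338, 3607 and 3433 in fKO (log2 change 5.32, SE 0.064, adjusted p = 6.91e-20). In males Dazl was at 151, 243 and 194 in mWT and 636, 2968 and 2770.0 in mKO (log2 change 3.17, SE 0.50, adjusted p = 0.00662), with mKO library A the lowest mutant, and the call was lost without mWT library C (adjusted p = 0.0602). Zp3, a zona pellucida gene of oocytes (log2 change 2.44, SE 0.35, adjusted p = 1.2e-05), the receptor gene Kit (log2 change 2.11, SE 0.064, adjusted p = 1.57e-14) and Ddx4, the germ cell helicase (log2 change 1.19, SE 0.07, adjusted p = 1.32e-10), also rose in females. The 4 lower ones in females were Tdrd1, Tdrd6, Dnd1 and Nobox, of which Dnd1 kept the call without each library in turn and the others did not (adjusted p up to 0.164 for Tdrd1, 0.0539 for Tdrd6 and 0.283 for Nobox).

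Tfap2c and Dppa3, genes of primordial germ cells that naive ESCs use as well, rose in both sexes (in females log2 change 1.06, SE 0.099, adjusted p = 6.58e-08 and log2 change 0.75, SE 0.098, adjusted p = 3.84e-06, in males log2 change 1.89, SE 0.26, adjusted p = 0.00406 and log2 change 2.02, SE 0.22, adjusted p = 0.00128). Mael, a gene of the transposon-silencing pathway, rose in females (log2 change 1.05, SE 0.096, adjusted p = 4.86e-08) and fell in males (log2 change -1.65, SE 0.23, adjusted p = 0.00412), from 494, 717 and 546 in mWT to 127, 222 and 220.3 in mKO, where the groups lay apart. The genes of late spermatids (Prm1, Prm2, Tnp1, Tnp2, Acrv1, Odf1 and Akap4) had 0 to 2.99 normalized counts in every library.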
